A study of Mus musculus with 17 samples.

Results

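Igf1, Gas6, Tgfbi, Ptn, Dkk2, Wif1, Mmp3, Cilp, Ccdc80 and Igfbp3 encode proteins that skin stromal cells release, and they were followed here through libraries of sorted mouse skin innate lymphoid cells (ILCs). These 10 genes, of 54446 Ensembl gene models in the bulk count files, were listed by name because earlier results of these data had them high in the libraries without the fate-map mark. The genes were thus chosen by their counts in the reporter-positive and reporter-negative libraries of intact mice, and those values are a description: any fitted call printed for that contrast supports nothing. The question was whether lymphocytes carry these transcripts.

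The study sorted live, lineage-negative, γδTCR-negative, CD90+ cells from skin of C57BL/6-background mice. A fate-map (fm) reporter labels cells permanently, so that later loss of its driver does not erase the mark. Marked and unmarked cells of intact reporter mice gave the groups fm_pos (n = 2 libraries) and fm_neg (n = 2), and reporter mice that the labels give as Gata3-deleted (Gata3flox) gave fm_pos_Gata3flox (n = 3) and fm_neg_Gata3flox (n = 3). WT_tamoxifen (n = 2) came from C57BL/6 mice and Gata3KO_tamoxifen (n = 2) from Gata3fl/flCreERT2 mice. Both received 5 mg of tamoxifen in each of 3 intraperitoneal injections, and the labels do not say which cells drive CreERT2. Of the 3 single-cell libraries, sc_skin_ILC has no day in its label, and sc_dorsal_day0 and sc_dorsal_day10 were taken from dorsal skin at 0 and 10 days from depilation, with 1 library each. The labels give no age or number of animals per library, and every p-value here reflects spread among single libraries, which may be technical.

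In skin these products act outside the cell. Igf1 is a growth factor and Igfbp3 binds it. Gas6 is a ligand of the TAM receptor tyrosine kinases, Ptn is a heparin-binding growth factor, and Dkk2 and Wif1 are secreted Wnt antagonists. Mmp3 is a secreted matrix protease, Tgfbi is an integrin-binding matrix protein, and Cilp and Ccdc80 are matrix-associated proteins. Fibroblasts and dermal papilla cells are known sources of most of them, macrophages are a known source of Igf1, and fibroblasts can carry CD90, the surface antigen of the sort.

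Start-site windows of 4 of the genes are shown because the results turn on them: Igf1 was counted mostly in one small cluster of cells, Mmp3 almost wholly in one cell barcode, the Wnt antagonist Wif1 in 1 cell barcode of the 3 single-cell libraries and the Wnt antagonist Dkk2 in none. Each window runs from 250 bases before to 50 bases after the RefSeq gene start (GRCm38.p6), 5′ to 3′ on the gene's strand. Capitals mark matches on either strand to a TATA box (TATAAA), an AP-1 motif (TGANTCA) or a GC box (GGGCGG), and no match overlapped another motif's.
Igf1: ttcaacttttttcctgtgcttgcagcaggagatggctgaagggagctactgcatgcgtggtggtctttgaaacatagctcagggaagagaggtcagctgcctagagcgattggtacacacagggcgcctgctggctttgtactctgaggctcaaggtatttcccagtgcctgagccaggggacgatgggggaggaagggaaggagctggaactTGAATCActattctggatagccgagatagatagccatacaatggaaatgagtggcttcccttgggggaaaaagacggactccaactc
Mmp3: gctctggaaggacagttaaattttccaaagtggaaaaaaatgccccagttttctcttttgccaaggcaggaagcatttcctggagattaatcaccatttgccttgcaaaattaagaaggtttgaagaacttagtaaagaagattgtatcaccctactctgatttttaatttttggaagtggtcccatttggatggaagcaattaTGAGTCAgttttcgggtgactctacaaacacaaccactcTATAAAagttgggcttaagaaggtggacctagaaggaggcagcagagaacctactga
Wif1: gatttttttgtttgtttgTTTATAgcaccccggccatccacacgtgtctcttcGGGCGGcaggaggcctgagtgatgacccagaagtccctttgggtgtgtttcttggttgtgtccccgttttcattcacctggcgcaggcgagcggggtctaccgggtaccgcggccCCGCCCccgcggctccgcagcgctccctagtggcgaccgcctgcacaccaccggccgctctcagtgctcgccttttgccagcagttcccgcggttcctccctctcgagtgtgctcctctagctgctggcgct
Dkk2: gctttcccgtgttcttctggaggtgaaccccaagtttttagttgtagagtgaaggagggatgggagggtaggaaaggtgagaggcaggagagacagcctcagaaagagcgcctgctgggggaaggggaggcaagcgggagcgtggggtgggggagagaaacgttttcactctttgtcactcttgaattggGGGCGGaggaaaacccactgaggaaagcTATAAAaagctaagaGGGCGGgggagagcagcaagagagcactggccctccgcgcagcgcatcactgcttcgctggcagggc
These windows lie at chr10:87860861-87861160 (+), chr9:7445572-7445871 (+), chr10:121033754-121034053 (+) and chr3:132085042-132085341 (+). RefSeq windows were matched for 9 of the 10 genes. The TATA box letters were in 3 of the 9 (Dkk2, Wif1 and Mmp3) against 13.6% of all 32851 windows, the AP-1 letters in 2 of the 9 (Igf1 and Mmp3) against 7.81%, and the GC box letters in 4 of the 9 (Gas6, Tgfbi, Dkk2 and Wif1) against 35.7%. No motif was present in all 9, and a match is a description of the letters only.

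Total counts were 14450612 to 44098274 per bulk library. The label "ILC" was set beside 12 lymphocyte genes, whose summed level was 10899 to 20301 CPM (counts relative to the TMM-scaled library total) over all 14 libraries. These genes alone cannot tell ILCs from T cells, and 8 T cell genes summed to 1170 to 2104 CPM. Fibroblast and keratinocyte transcripts were present beside them: the sum of 15 fibroblast genes was 75.3 and 233 CPM in fm_pos, 9029 and 6723 in fm_neg, 163 to 375 in fm_pos_Gata3flox, 447 to 1209 in fm_neg_Gata3flox and 1252 to 4544 in the tamoxifen libraries. The sum of 12 keratinocyte genes was 2618 and 4615 CPM in fm_neg and 370 to 764 CPM in the other 12 libraries. Gata3 averaged 233 ± 97.9 CPM (SD, n = 2) in fm_pos, 442 ± 87.0 in fm_neg (n = 2), 232 ± 76.9 in fm_pos_Gata3flox (n = 3) and 379 ± 99.7 in fm_neg_Gata3flox (n = 3). Gata3 was thus at the same mean level in fm_pos_Gata3flox as in fm_pos, and it did not pass as lower in fm_neg_Gata3flox than in fm_neg (log2 difference -0.22 ± 0.35, SE; edgeR adjusted p = 0.783). These gene-level counts showed no clear loss of Gata3 transcript and cannot decide whether the gene was deleted. Both groups are therefore called libraries labelled Gata3flox throughout, and no comparison with them is read as an effect of losing Gata3. In the tamoxifen set Gata3 was 307 ± 10.6 CPM in Gata3KO_tamoxifen and 481 ± 141 in WT_tamoxifen (n = 2 each), with a log2 difference of -0.65 ± 0.26 (SE; edgeR adjusted p = 0.742). Whether the counted reads cover the deleted part of Gata3 was not tested.

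**Figure D1:**
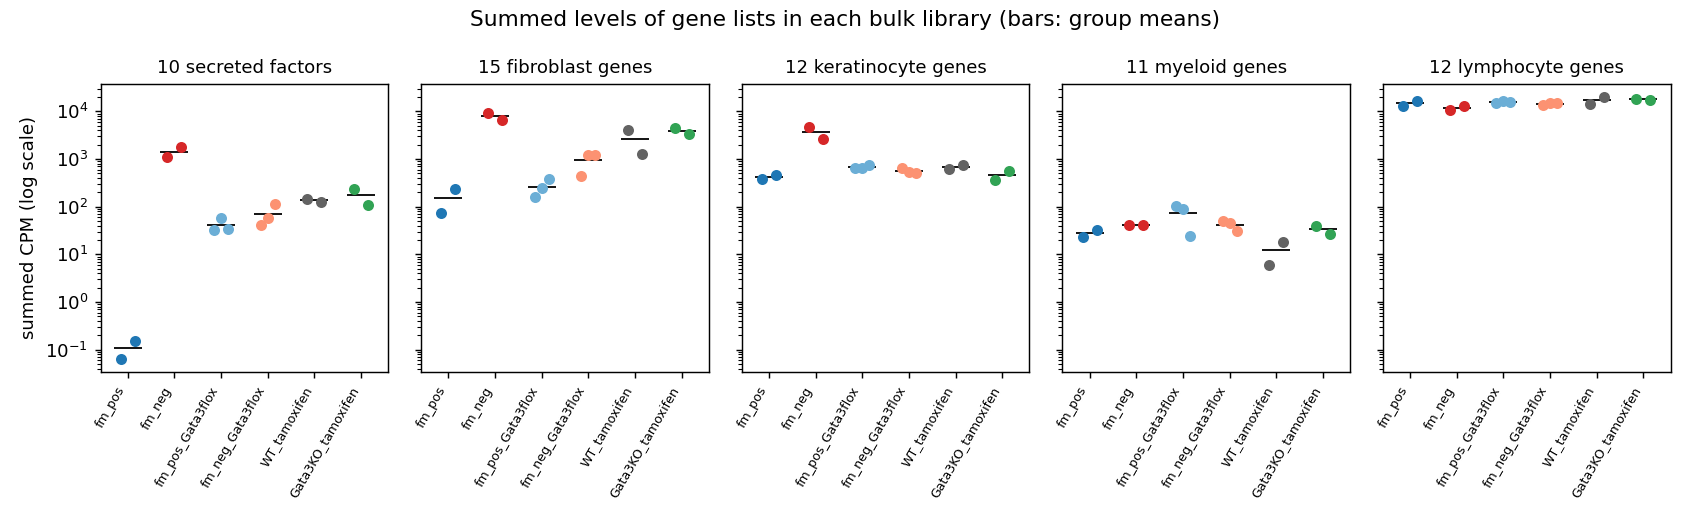
Summed CPM (log scale) of 5 gene lists in each of the 14 bulk libraries by group, with a bar at each group mean; fate-map and tamoxifen libraries were normalised separately. The 10 secreted factors sum to 1095 and 1765 CPM in fm_neg and to under 1 CPM in both fm_pos libraries, while the lymphocyte list stays between 10899 and 20301 CPM throughout.

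The intact reporter mice gave the widest contrast, which is the one that chose the genes. The 10 genes together summed to 0.0649 and 0.151 CPM in fm_pos and to 1095 and 1765 CPM in fm_neg. All 10 passed the edgeR test as lower in fm_pos, where 2.11% of 17456 tested genes did (0.624% passed as higher and 2.74% in either direction), and for all 10 the groups did not overlap, as for 18.9% of tested genes in that direction. Nothing is read from these counts because the contrast chose the genes. The calls also depended on the fit: with the replicate block 3 remained (Igf1, Gas6 and Igfbp3), and with the libraries of both groups only 2 (Igf1 and Igfbp3). In fm_pos 8 of the 10 had 0 counts in both libraries. Igf1 had 1 count in all and Igfbp3 had 7.

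Among the IGF genes, Igf1 (chr10:87858265-87937042, + strand, ENSMUSG00000020053) measured 76.9 and 52.4 CPM in fm_neg against 0 and 0.0251 CPM in fm_pos, a ratio of 4753 with a counting interval of 852 to 187800. Igfbp3 (chr11:7206086-7213923, - strand, ENSMUSG00000020427), which carries IGFs and limits their access to the receptor, measured 542 and 619 CPM in fm_neg against 0.0649 and 0.125 CPM in fm_pos, a ratio of 5778 (2804 to 14373). Igfbp3 had the highest level per kilobase of exon in fm_neg of the 10 genes, at 185 ± 17.5 CPM per kb (SD, n = 2), and Igf1 the lowest, at 6.53 ± 1.75. The fm_neg and fm_pos libraries did not overlap for either gene.

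Gas6 (chr8:13465374-13494490, - strand, ENSMUSG00000031451) measured 51.8 and 78.99 CPM in fm_neg, and Ptn (chr6:36714929-36810220, - strand, ENSMUSG00000029838) 21.5 and 43.9 CPM. With 0 counts in fm_pos, Gas6 was at least 1472-fold and Ptn at least 714-fold lower there, each bound taken against 3 counts over the group. These are the pair of receptor ligands outside the IGF and Wnt systems, and both were higher in each fm_neg library than in any other fate-map library, except that fm_pos_Gata3flox replicate 2 had 27.1 CPM of Ptn.

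The Wnt antagonist Dkk2 (chr3:132085292-132180304, + strand, ENSMUSG00000028031), which binds LRP co-receptors, measured 111 and 48.6 CPM in fm_neg and was at least 2041-fold lower in fm_pos. Wif1 (chr10:121033960-121100650, + strand, ENSMUSG00000020218), which binds Wnt ligands themselves, measured 51.8 and 268 CPM and was at least 3223-fold lower in fm_pos. The replicates of fm_neg ranked these genes in opposite order, Dkk2 being the higher in replicate 1 and Wif1 in replicate 2.

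The protease Mmp3 (chr9:7445822-7455975, + strand, ENSMUSG00000043613) measured 47.1 and 270.2 CPM in fm_neg and was at least 3176-fold lower in fm_pos. Of the matrix proteins, Cilp (chr9:65265180-65280605, + strand, ENSMUSG00000042254) measured 107 and 203 CPM, with fm_pos at least 3411-fold lower. Ccdc80 (chr16:45093402-45128077, + strand, ENSMUSG00000022665) measured 48.0 and 125 CPM, with fm_pos at least 1848-fold lower. Tgfbi (chr13:56609523-56639562, + strand, ENSMUSG00000035493) measured 38.0 and 55.1 CPM, with fm_pos at least 1053-fold lower. Per kilobase, Mmp3 (88.1 ± 87.6 CPM per kb) and Wif1 (65.9 ± 63.0) had SDs about as large as their means in fm_neg, so their place between Igfbp3 and Cilp (36.5 ± 16.1) is within the spread of the 2 libraries. Gas6 (25.7 ± 7.56), Dkk2 (21.6 ± 11.96) and Ccdc80 (20.2 ± 12.8) followed, and Tgfbi (12.3 ± 3.21), Ptn (9.52 ± 4.61) and Igf1 were lowest.

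Markers of several other cell types moved with this contrast, those of fibroblasts among them. Dcn, a collagen-binding proteoglycan, averaged 5299 ± 1228 CPM (SD, n = 2) in fm_neg and 71.0 ± 61.6 in fm_pos, and Col3a1, a fibrillar collagen, 149 ± 104 and 0.0125 ± 0.0177. Of the 15 fibroblast genes 6 passed the test as lower in fm_pos, and all 15 had a negative log2 difference. The fibroblast list was not at 0 in fm_pos: 4 of its 15 genes had 0 counts in replicate 2 and 7 in replicate 1. For every 1000 CPM of the fibroblast list, the 10 secreted factors summed to 0.862 and 0.645 CPM in fm_pos and to 121 and 263 CPM in fm_neg. Keratinocyte genes moved too, with 6 of 12 passing as lower in fm_pos, among them Krt14, a basal keratin, at 46.4 ± 32.3 against 1701 ± 764 CPM. The sum of 11 dermal papilla genes was 41.6 and 46.3 CPM in fm_pos and 688 and 859 CPM in fm_neg, and 1 of its 10 tested genes passed as lower. The sum of 7 pericyte and smooth muscle genes was 0 and 0.0502 CPM in fm_pos, as near to 0 as the factors, and 57.3 and 197 CPM in fm_neg, with none of its 6 tested genes passing. The sum of 7 mast cell genes was 57.8 and 103 CPM in fm_pos and 335 and 128 CPM in fm_neg, again with none of 7 tested genes passing. In bulk libraries fewer cells of a type and less RNA per cell cannot be told apart, and the part of these other cell types in the result was not tested.

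**Figure D2:**
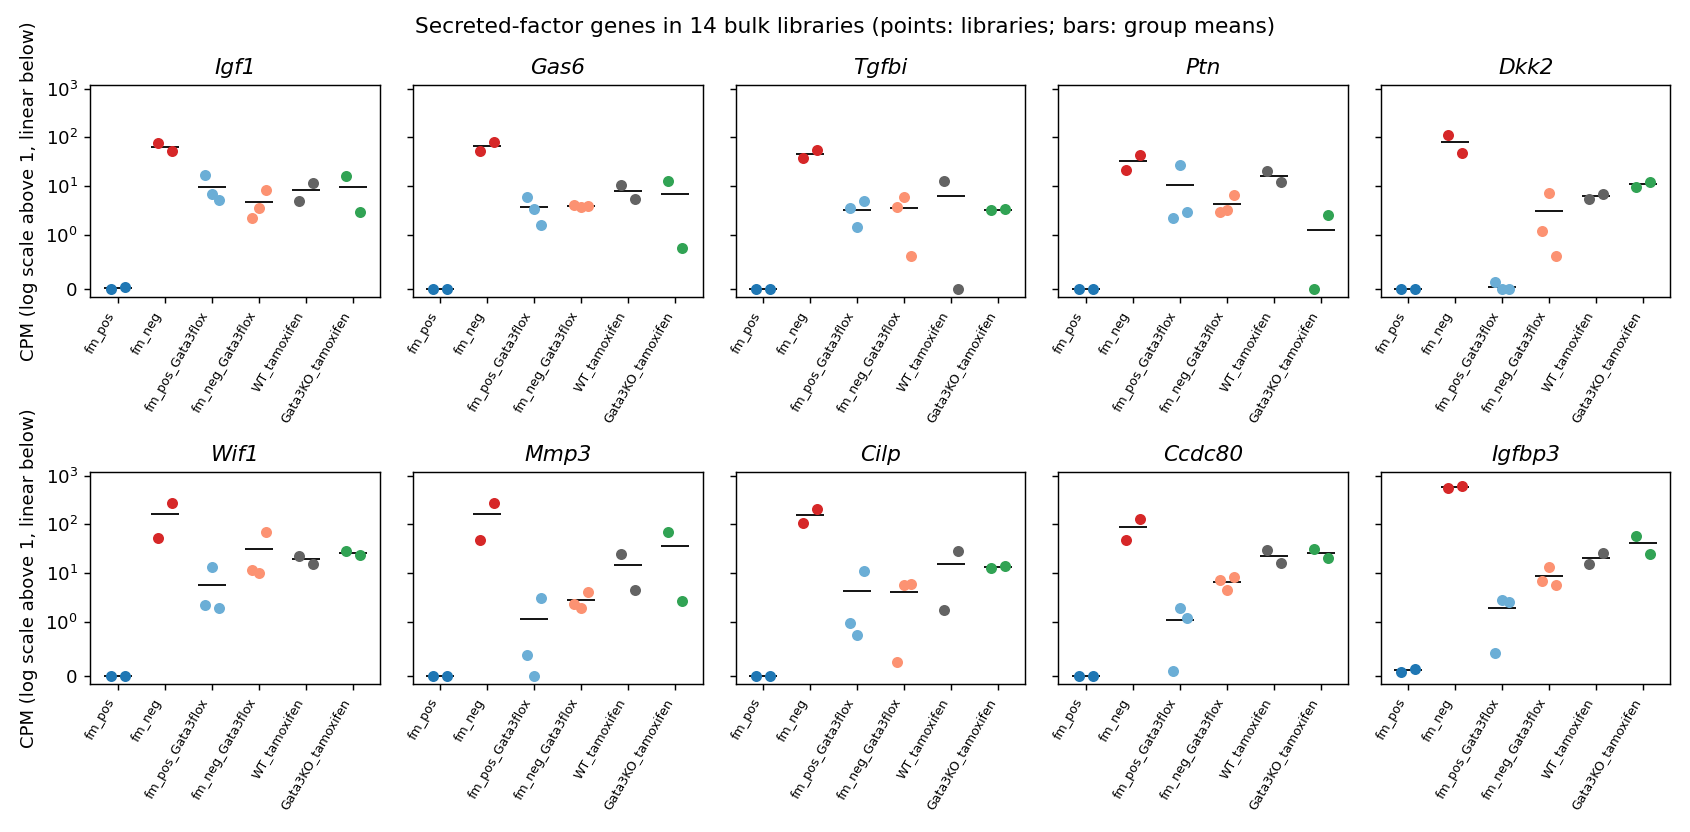
CPM (log scale above 1 and linear below) of each of the 10 genes, 1 point per bulk library, by group, with a bar at each group mean; the tamoxifen libraries were normalised apart from the fate-map ones. The highest fate-map value of each gene lies in fm_neg, Igfbp3 at 542 and 619 CPM, and fm_pos sits at or next to 0.

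The reporter-negative libraries of mice labelled Gata3flox held little of this set. The 10 genes summed to 42.2, 58.8 and 114 CPM in fm_neg_Gata3flox, and every one of the 10 had a lower mean there than in fm_neg. Igfbp3 measured 6.88, 12.9 and 5.76 CPM, Gas6 4.15, 3.72 and 3.90 CPM, and Igf1 2.23, 3.49 and 8.28 CPM. These 3 passed the edgeR test as lower than in fm_neg (0.739% of 17456 genes did; 0.596% passed as higher and 1.33% in either direction), but fm_neg is the group whose level chose the genes, so the count is a description. Only Igfbp3 was still called when any 1 library of either group was left out, and with the lane token as a covariate. For 9 of the 10 the libraries of both groups did not overlap (17.6% of all tested genes in that direction and 21.9% in the other). Wif1, at 11.2, 9.97 and 70.4 CPM, overlapped fm_neg through replicate 3. The fibroblast and keratinocyte sums were also lower in fm_neg_Gata3flox than in fm_neg, and their part in this difference was not tested.

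The genes followed the fibroblast list to differing degrees. Their log2(CPM + 1) was set against that of the fibroblast sum over the 10 libraries outside fm_pos and fm_neg. Pearson's r was 0.934 for Ccdc80, 0.904 for Igfbp3, 0.864 for Dkk2, 0.810 for Mmp3 and 0.687 for Wif1. It was 0.524 for Cilp, 0.263 for Gas6, 0.183 for Tgfbi, -0.0801 for Igf1 and -0.158 for Ptn. Each r is a description across groups. The ratios to the list differed as well. Igfbp3 was 60.02 and 92.1 CPM per 1000 CPM of fibroblast genes in fm_neg and 2.61 to 19.97 in the 10 libraries of the Gata3flox and tamoxifen groups, with no overlap. Ccdc80 was 5.32 and 18.7 in fm_neg and 3.68 to 16.2 in fm_neg_Gata3flox, ranges that overlap. Igf1 was 7.79 and 8.52 in fm_neg, 2.89 to 6.92 in fm_neg_Gata3flox and 13.6 to 103 in fm_pos_Gata3flox, where it was highest. The value of 103 was in replicate 1, which had the smallest fibroblast sum outside fm_pos (163 CPM). These ratios are descriptions, since fm_neg chose the genes and all ratios in a library share its fibroblast sum.

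**Figure D3:**
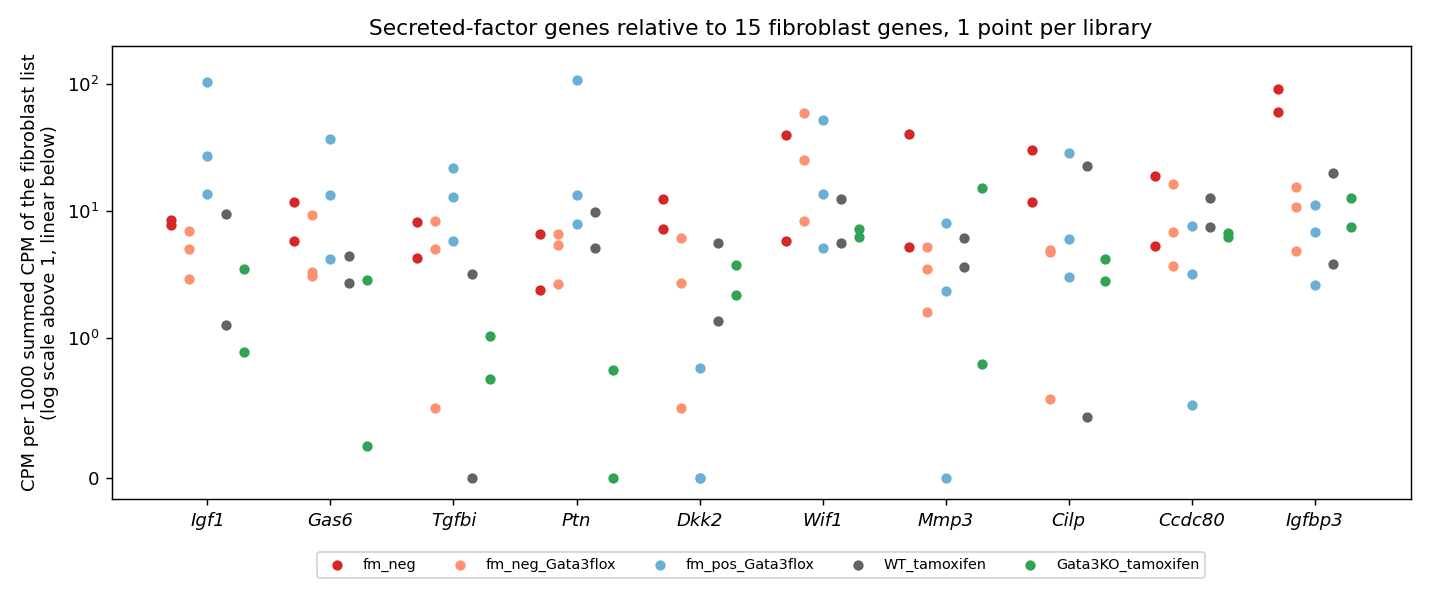
CPM of each gene for every 1000 summed CPM of 15 fibroblast genes, 1 point per library, on a log axis above 1 and linear below. The fm_pos libraries are not drawn. The smallest fibroblast sum drawn is 163 CPM, in fm_pos_Gata3flox replicate 1. Igfbp3 stands at 60.02 and 92.1 in fm_neg and at 19.97 or less in the other groups, whereas the groups overlap for Ccdc80.

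The reporter contrast was also tested between the libraries labelled Gata3flox, which are not those of intact mice. It is not fully independent of the choice of genes. The genes were listed with earlier results of these data known, and the fit shares its estimate of spread with fm_pos and fm_neg. None of the 10 passed this test in edgeR at an adjusted p under 0.05, where 0.361% of 17456 tested genes did (63 genes, 0.126% higher and 0.235% lower). In the same edgeR test 4 of the 10 had an unadjusted p under 0.05, as did 1360 of the 17456 tested genes. The median log2 difference, fm_pos_Gata3flox minus fm_neg_Gata3flox, was -0.67 over the 10 genes and 0 over all tested genes. For 3 of the 10 (Dkk2, Ccdc80 and Igfbp3) every fm_pos_Gata3flox library was below every fm_neg_Gata3flox library, against 9.18% of all tested genes, and for none was it the reverse (9.00%). DESeq2 called these same 3, and edgeR without a filter on low counts called them and Wif1. Both alternatives also called many more genes of the whole set than the reported fit, as counted in the last section. Their calls are therefore not read as support for these genes. In simulated data of this design, 52.1% of genes changed by 4 and 22.9% of genes changed by 2 on the log2 scale were recovered, so a missed call does not show equal levels.

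Dkk2 measured 0.127, 0 and 0 CPM in fm_pos_Gata3flox and 1.21, 7.35 and 0.600 CPM in fm_neg_Gata3flox, a log2 difference of -6.28 ± 1.42 (SE; edgeR adjusted p = 0.156; 0.0176 in DESeq2). Igfbp3 measured 0.424, 2.77 and 2.57 CPM against 6.88, 12.9 and 5.76 CPM, a difference of -2.12 ± 0.53 (adjusted p = 0.198 in edgeR; 0.00116 in DESeq2). Ccdc80, a matrix-associated protein, measured 0.0849, 1.91 and 1.18 CPM against 7.23, 4.45 and 8.10 CPM, a difference of -2.62 ± 0.84 (edgeR adjusted p = 0.421; 0.0315 in DESeq2). The groups did not overlap for these 3 genes, which were low in all fm_pos_Gata3flox libraries. Beside them, Dcn averaged 88.9 ± 22.7 CPM in fm_pos_Gata3flox and 426 ± 132 in fm_neg_Gata3flox (SD, n = 3 each), a log2 difference of -2.26 ± 0.46 (edgeR adjusted p = 0.0951). All 15 fibroblast genes had a negative difference and none of them passed; their part in the values of the secreted factors was not tested.

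The other 7 genes overlapped between the groups. Wif1 measured 2.21, 13.1 and 1.90 CPM in fm_pos_Gata3flox (difference -2.42 ± 1.06, edgeR adjusted p = 0.640). Mmp3 measured 0.382, 0 and 3.01 CPM there against 2.33, 1.93 and 4.14 CPM in fm_neg_Gata3flox. Igf1 leaned the other way, at 16.8, 6.77 and 5.10 CPM in fm_pos_Gata3flox (difference 1.03 ± 0.64, edgeR adjusted p = 0.824). The sum of 11 myeloid genes was 102, 90.8 and 24.8 CPM in the same 3 libraries. In fm_neg_Gata3flox it was 49.3, 45.7 and 30.5 CPM, so the groups overlapped. The sum of 8 endothelial genes was 43.3, 34.6 and 61.2 CPM against 8.30, 6.93 and 9.12 CPM there. The sum of 6 adipocyte genes was 29.1, 24.8 and 81.4 CPM against 10.2, 3.17 and 4.20 CPM. Fibroblast and mast cell sums were lower in fm_pos_Gata3flox. The part of these lists in the Igf1 values was not tested. Ptn measured 2.16, 27.1 and 2.97 CPM against 2.93, 3.21 and 6.48 CPM, so its positive difference (1.35 ± 0.97) rests on replicate 2 and is -0.71 without it. Gas6 (-0.11 ± 0.53), Tgfbi (-0.09 ± 0.80) and Cilp (0.09 ± 1.13) were close to 0 with SEs wider than the differences, and their signs turned when single libraries were left out (Gas6 0.25 without fm_pos_Gata3flox replicate 3, Tgfbi 0.27 without fm_pos_Gata3flox replicate 2 and 0.59 without fm_neg_Gata3flox replicate 2, Cilp -2.19 without fm_pos_Gata3flox replicate 3 and -0.47 without fm_neg_Gata3flox replicate 1). In Tgfbi the libraries read 3.52, 1.44 and 4.84 CPM against 3.74, 6.06 and 0.600 CPM. Gas6 read 6.03, 3.35 and 1.58 CPM in fm_pos_Gata3flox, and Cilp 0.976, 0.756 and 10.7 CPM there against 0.253, 5.74 and 5.88 CPM in fm_neg_Gata3flox.

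**Figure D4:**
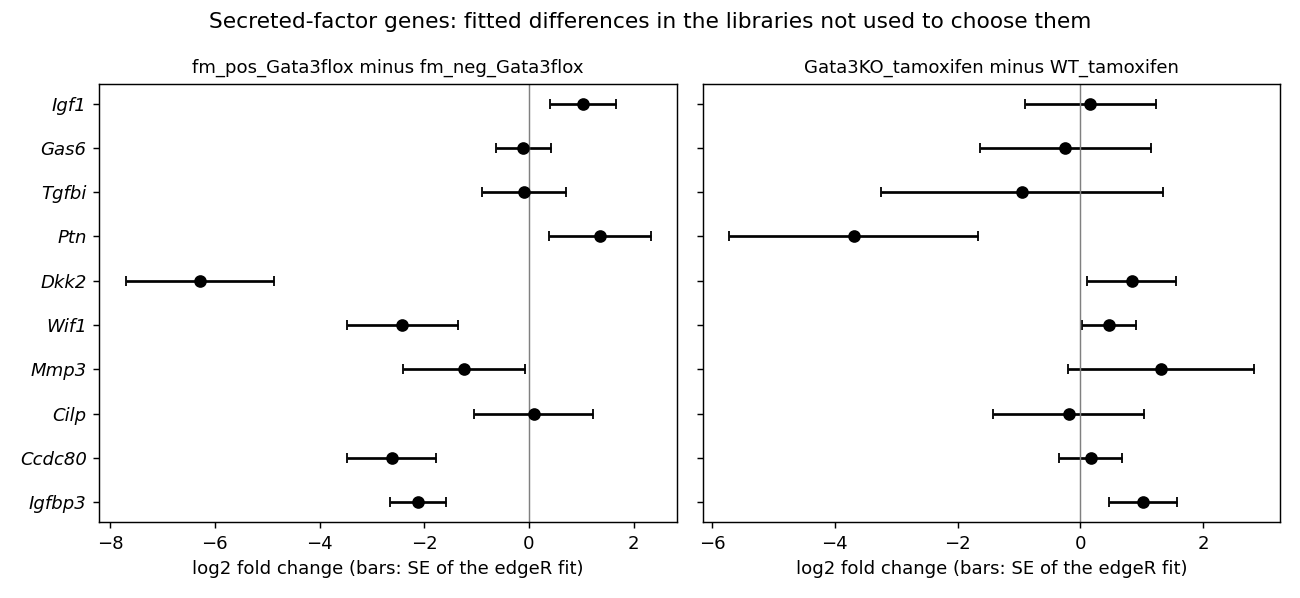
Fitted log2 fold change of each gene with its SE, for fm_pos_Gata3flox minus fm_neg_Gata3flox (left) and Gata3KO_tamoxifen minus WT_tamoxifen (right). On the left Dkk2, Ccdc80, Wif1 and Igfbp3 lie more than 2 SEs below 0, and on the right only Ptn, Dkk2, Wif1 and Igfbp3 lie more than 1 SE from 0; none passed the edgeR test.

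In the tamoxifen set none of the 10 genes passed, and edgeR called 0 of 13272 tested genes (0%; 915 had an unadjusted p under 0.05, none of them in the list, and DESeq2 called 200, none of them in the list). The 10 genes summed to 148 and 126 CPM in WT_tamoxifen and to 239 and 107 CPM in Gata3KO_tamoxifen, so the groups overlapped. The tamoxifen libraries were normalised apart from the fate-map ones; each of their sums lay above those of fm_pos_Gata3flox and below those of fm_neg, and they overlapped fm_neg_Gata3flox at its highest library.

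Ptn was the gene with the widest fall in fitted value, from 20.4 and 12.2 CPM in WT_tamoxifen to 0 and 2.54 CPM in Gata3KO_tamoxifen (difference -3.69 ± 2.03, edgeR adjusted p = 0.914). Igfbp3 measured 15.2 and 25.01 CPM in WT_tamoxifen against 56.9 and 24.6 CPM (1.02 ± 0.56, edgeR adjusted p = 0.911). Libraries did not overlap for Ptn, lower in Gata3KO_tamoxifen (19.3% of all tested genes), or for Dkk2 and Wif1, higher there (16.8% of all tested genes). Dkk2 measured 5.41 and 6.94 CPM in WT_tamoxifen and 9.79 and 12.3 CPM in Gata3KO_tamoxifen, and Wif1 22.4 and 15.6 CPM against 28.5 and 23.8 CPM. These 2 are the Wnt antagonists of the set, and neither passed (log2 differences 0.84 ± 0.73 and 0.46 ± 0.44, edgeR adjusted p = 0.9999 for both). The other 7 genes overlapped between the groups.

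Mmp3 measured 24.4 and 4.50 CPM in WT_tamoxifen and 69.2 and 2.68 CPM in Gata3KO_tamoxifen, so 1 library of each group was high. Igf1 measured 5.03 and 11.8 CPM against 15.8 and 2.95 CPM, and Gas6 10.7 and 5.50 CPM against 12.9 and 0.756 CPM. Tgfbi measured 12.7 and 0 CPM against 3.19 and 3.37 CPM. Cilp measured 1.74 and 28.4 CPM against 12.7 and 13.8 CPM, and Ccdc80 29.6 and 15.7 CPM against 30.4 and 20.5 CPM. The sign of the difference turned for 6 genes when 1 library was left out. Without WT_tamoxifen replicate 1 it was -0.33 for Igf1, 0.31 for Gas6 and 8.90 for Tgfbi, and without WT_tamoxifen replicate 2 it was 2.93 for Cilp and -0.21 for Ccdc80. Without Gata3KO_tamoxifen replicate 1 it was -1.51 for Igf1, -2.42 for Mmp3 and -0.14 for Ccdc80, and without replicate 2 it was 0.67 for Gas6.

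Besides Igf1 and Igfbp3, 10 IGF-axis genes were tested in the fate-map fit and 9 in the tamoxifen fit, and none passed in the Gata3flox or the tamoxifen contrast. Irs2, an adaptor of the IGF and insulin receptors, was the most abundant, at 376 ± 61.5 CPM in fm_pos and 326 ± 48.7 in fm_neg (SD, n = 2 each). Igf1r, the receptor of Igf1, measured 43.5 ± 3.64 CPM in fm_pos and 42.0 ± 20.8 in fm_neg (n = 2 each), groups that overlapped, and 33.2 ± 4.14 against 16.1 ± 2.62 CPM in fm_pos_Gata3flox and fm_neg_Gata3flox (n = 3 each; log2 difference 1.05 ± 0.31, edgeR adjusted p = 0.334). In the contrast that chose the factors, 4 IGF-binding genes (Igfbp2, Igfbp5, Igfbp6 and Igfbp7) passed as lower in fm_pos and no gene of the axis as higher. Igfbp7 averaged 306 ± 111 CPM in fm_neg and 4.81 ± 1.19 in fm_pos.

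For Gas6, the TAM list held the ligand Pros1 and the receptors Axl, Mertk and Tyro3, of which 3 were tested in the fate-map fit and none passed. Axl averaged 132 ± 40.1 CPM in fm_neg and 10.8 ± 15.2 in fm_pos, and Pros1 90.6 ± 7.23 and 14.3 ± 4.83 (SD, n = 2 each). Mertk was at 5.74 ± 8.12 CPM in fm_neg and at 0 in fm_pos. Among the genes that bind pleiotrophin, Ncl, a nucleolar protein also found at the cell surface, was level at 435 ± 45.7 and 485 ± 51.8 CPM in fm_pos and fm_neg. The heparan sulphate proteoglycans Sdc4 (132 ± 43.2 and 181 ± 16.3) and Sdc1 (115 ± 20.04 and 104 ± 24.5) had log2 differences of -0.46 ± 0.30 and 0.15 ± 0.47 (SE). None of the 6 tested genes of this list passed in the fm_pos contrast, and Sdc1 alone passed as lower in fm_neg_Gata3flox (17.7 ± 5.47 CPM, n = 3; log2 difference from fm_neg -2.55 ± 0.43, edgeR adjusted p = 0.0317).

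Of 10 other secreted Wnt antagonists 6 were tested in the fate-map fit, all had a negative difference in fm_pos and none passed. The most abundant in fm_neg were Dkk3 (39.1 ± 24.1 CPM), Sostdc1 (15.1 ± 13.1) and Frzb (11.5 ± 5.32). Sostdc1 and Frzb had 0 CPM in fm_pos. Of 14 matrix proteases and inhibitors 13 were tested, and only Adamts1, a secreted metalloprotease, passed as lower in fm_pos (0.0162 ± 0.0230 against 97.7 ± 54.0 CPM). Timp2, an inhibitor of matrix metalloproteases, was abundant in both groups, at 231 ± 151 and 436 ± 1.24 CPM. In the Gata3flox reporter contrast and in the tamoxifen contrast no gene of the TAM, Wnt antagonist, pleiotrophin or protease lists passed.

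The genes most like the 10 across the fate-map libraries were ranked by Pearson's r of log2(CPM + 1) with the mean of the z-scored factors, over 10 libraries and 8216 genes with a mean of at least 10 CPM. They were Apoe (r = 0.984), Igfbp7 (0.981), Ifitm3 (0.976), Has1 (0.974), Gpnmb (0.973), Fmod (0.968), Tnfrsf12a (0.965), Cebpd (0.963), Mfap2 (0.960) and Aspn (0.959). Each r is a description over libraries of 4 groups, and the 10 genes it is measured against were chosen by their level in fm_neg. Apoe, a lipid carrier, averaged 1093 CPM in fm_neg and 36.7 CPM in fm_pos. Fmod, Aspn and Mfap2 encode extracellular matrix proteins and Has1 a hyaluronan synthase. Aspn averaged 709 CPM in fm_neg against 0.768 CPM in fm_pos, 11.04 in fm_pos_Gata3flox and 38.9 in fm_neg_Gata3flox.

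Single cells showed few counts of the 10 genes. After filters 4103 cells remained in sc_skin_ILC, 553 in sc_dorsal_day0 and 443 in sc_dorsal_day10, where the median cell held 2358, 1984 and 1811 counts. The 10 genes had 103 counts in 47 cells of sc_skin_ILC (10.1 CPM), 18 counts in 16 cells of sc_dorsal_day0 (15.4) and 9 counts in 7 cells of sc_dorsal_day10 (10.4). Each library is 1 sample, so the libraries were not tested against each other, and intervals cover counting error only. Libraries shared 4 cell barcodes (sc_skin_ILC with sc_dorsal_day0) and 0 in the other pairs.

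No cluster of fibroblast-like cells was found, so 0 of the 103 counts lay in one. The 15 fibroblast genes had 116 counts in sc_skin_ILC, at most 4 in any cell, and 18 of 4103 cells had at least 2. Of the defining fibroblast genes, Lum and Pdgfra had 0 counts in 4103 cells, which allows a share of up to 0.0731% of cells with a count. Dcn was counted in 5 cells and Col1a2 in 4. Col1a1 and Col5a1 were each counted in 35. Igfbp3, at 542 and 619 CPM in fm_neg, had 4 counts in 2 cells here (0.391 CPM of that library, exact Poisson interval 0.106 to 1.0). The bulk and single-cell values come from different library types and sorts, and were not compared by a test.

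Within sc_skin_ILC, Igf1 was counted in 18 cells, more than any other of the 10 genes, and 16 of them lay in one cluster of 44 cells led by the macrophage genes Mrc1, C1qc and C1qa. It was counted in 36.4% of that cluster (95% Clopper-Pearson interval 22.4 to 52.2) and in 2 of 4047 cells of the lymphocyte-like clusters (0.0494%, 0.00599 to 0.178). Median depth was 2503 and 2355 counts per cell. The cells of the 44-cell cluster also carried lymphocyte genes: Gata3 was counted in 77.3% of them against 79.6% of the lymphocyte-like clusters, and Il7r in 70.5% against 72.5%. The cluster is therefore called here by its leading genes and not by a cell type. Only 3 cells of the library were marked as doublets, and whether these barcodes hold more than 1 cell was not tested. All clusters were formed without the 10 genes, and the lymphocyte-like ones include 14 cells led by B-cell genes and 202 led by T-cell genes.

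Tgfbi was counted in 15 cells of sc_skin_ILC: 6 of the 44 macrophage-gene cells (13.6%, 5.17 to 27.4), 2 of 12 cells of an unnamed cluster led by Chil3 and Ear2, and 7 of the 4047 lymphocyte-like cells (0.173%, 0.0696 to 0.356). Gas6 was counted in 3 cells, 2 of them in the macrophage-gene cluster. For comparison, Csf1r, a macrophage receptor, was counted in 0.222% and Dcn in 0.124% of the same lymphocyte-like cells. In these cells the share of Tgfbi lay between those of Dcn and Csf1r and inside the interval of Csf1r (0.102 to 0.422), and the shares of Igf1 and Gas6 lay below both. The source of these few counts was not tested.

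The remaining genes had their few counts in lymphocyte-like clusters. Ccdc80 was counted in 5 cells, Ptn in 4, Cilp and Igfbp3 in 2 each, Wif1 in 1 cell and Dkk2 in none of 4103. Their shares, at most 0.124% of lymphocyte-like cells (Ccdc80), were no higher than that of Dcn. Mmp3 had 35 counts, all in a single barcode. That barcode had 7163 counts in all, 168 of them from the 12 keratinocyte genes and 2 from the 12 lymphocyte genes, and it also held 2 of the 4 Igfbp3 counts, 1 of Tgfbi and 1 of Ccdc80. It was grouped with a lymphocyte-like cluster, and its own counts go against that name. No other cell of this library had Mmp3.

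**Figure D5:**
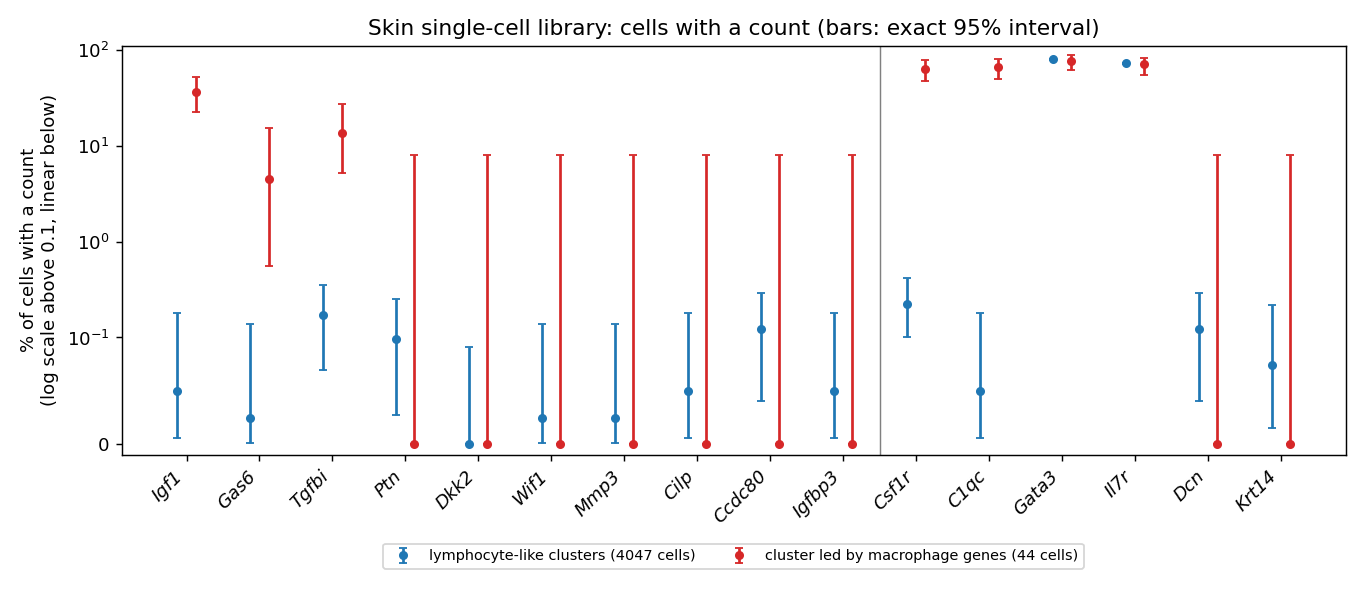
Percent of cells with at least 1 count in sc_skin_ILC (log axis above 0.1% and linear below) for the 10 genes and 6 reference genes, in 4047 cells of lymphocyte-like clusters and 44 cells of the cluster led by macrophage genes, with exact 95% intervals for counting error. Igf1 is at 36.4% in the 44 cells and 0.0494% in the others, while Gata3 and Il7r are near 70 to 80% in both.

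In dorsal skin on day 0, Tgfbi was counted in 7 of 553 cells (1.27%, 0.510 to 2.59) and Igf1 in 6 (1.08%, 0.399 to 2.35). Mmp3 and Ccdc80 were each counted in 1 cell and Igfbp3 in 2, and the other 5 genes in none, which allows a share of up to 0.542%. One barcode carried both Ccdc80 and Igfbp3, and it held 7 counts of fibroblast genes, the most of any cell there, beside 5 lymphocyte counts. On day 10, Tgfbi was counted in 4 of 443 cells (0.903%, 0.247 to 2.30), Igf1, Gas6 and Ptn in 1 each, and the other 6 genes in none. Any of the 10 genes was counted in 2.89% of day 0 cells (1.66 to 4.66) and 1.58% of day 10 cells (0.638 to 3.23), intervals that overlap. With every cell thinned to 1000 counts the shares were 1.93% of 519 cells and 0.728% of 412 cells, 34 and 31 shallower cells being left out. In the same libraries Csf1r was counted in 5.06% of day 0 and 4.51% of day 10 cells, above the shares of Igf1 and Tgfbi. Dcn was counted in 3 day 0 cells (0.542%, 0.112 to 1.58) and in 0 day 10 cells (0 to 0.829%). These shares lay below those of Igf1 and Tgfbi, with intervals that overlap. Col1a2 was counted in 6 and 1 cells, as Igf1 was. No dorsal cluster had leading genes from the myeloid or fibroblast lists. All cells of both libraries lay in lymphocyte-like clusters, among them the 16 and 7 with a count of the 10 genes. At least 2 counts of the myeloid genes were held by 1 of the 16 (6.25%), against 14.3% of all day 0 cells. On day 10 it was 1 of the 7 (14.3%), against 14.7% of all cells. None of the Tgfbi cells reached 2 myeloid counts on either day. The source of these counts was not tested.

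Receptors and binding partners of the factors were counted in single cells as well. In sc_skin_ILC, Igf1r was counted in 17.5% of 4103 cells (16.4 to 18.7), Sdc4 in 44.1%, Ncl in 73.4% and the integrin Itgav in 53.0%, while Axl was counted in 3.41% and Mertk in 0.244%. The Wnt co-receptor Lrp6 was counted in 7.48%. In the dorsal libraries Igf1r was counted in 5.06% of day 0 and 3.61% of day 10 cells and Itgav in 56.2% and 56.9%. Thy1, which encodes the CD90 of the sort, was counted in 70.6% of sc_skin_ILC cells.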

How the data were processed

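Bulk libraries (14) and single-cell libraries (3) of sorted skin ILCs were used. The gene that drives the fate-map reporter is not reported here. Bulk files deposited by the authors hold raw counts of each gene, and reads were aligned to mm10 with HISAT2 2.1.0 and counted with featureCounts of Subread, per the submitters' processing notes. The deposited single-cell values were raw counts per gene and cell; their platform, alignment and cell calling, and whether bulk counting used strand, are not given in the sources used here. Igf1 overlaps the antisense model Igf1os (25 counts over all libraries against 4214), and Gas6 overlaps Tmem255b (403 against 3391).

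Bulk counts were fitted in R 4.3.3 with edgeR 4.0.16 (filterByExpr, TMM factors, quasi-likelihood test), in one fit for the 10 fate-map libraries (17456 genes) and another for the 4 tamoxifen libraries (13272 genes). Genes were called at a Benjamini-Hochberg adjusted p under 0.05 over all genes tested. Fits were tested on simulated data. CPM are TMM-scaled and per-library zeros allow up to 3 counts. DESeq2 1.42.0, other scaling, no filter, a lane covariate, a replicate block and leaving out each library were alternatives. All fm_pos and fm_pos_Gata3flox libraries carry lane token 2, whereas fm_neg and fm_neg_Gata3flox each hold tokens 1 and 2. Token and reporter are thus partly confounded.

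Single cells with at least 200 genes and at most 10% mitochondrial counts were kept, doublets predicted with Scrublet in scanpy 1.11.5 were removed (3, 11 and 11 cells), and clusters were made without the 10 genes (2000 variable genes, 30 components, 15 neighbours, Leiden resolution 0.5). The dorsal libraries list no mitochondrial genes, so that filter could not act there. Clusters were named from marker lists of cell types. Intervals are 95% Clopper-Pearson or exact Poisson intervals and cover counting error only. The 10 genes and all lists were chosen with earlier results of these data known. Named beyond them were fibroblast markers and lists moving with them, genes of the partner lists that passed or else the 3 with the highest mean CPM, the 10 genes most like the set, and Gata3. Receptors given in single cells, Igf1r, Sdc1, Aspn and Krt14 among them, were named after their values were seen. No 2 libraries of a group held identical values.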

Additional observations from a re-analysis of the deposited data

How the results depend on the processing

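Over the Gata3flox reporter contrast, the count of called genes was 63 in the reported fit, 419 by DESeq2, 321 without the low-count filter, 233 with the libraries of both groups only, 10 with the lane token as a covariate, 31 with the replicate block, and 2 to 27 when 1 library was left out, lowest without fm_pos_Gata3flox replicate 2. The count among the 10 genes was 0 there, 3 with DESeq2, 4 with no filter, and 0 in every leave-one-out fit. In the tamoxifen contrast the count over all genes was 0, 200 with DESeq2 and 6 with no filter, and 0 among the 10 genes under each alternative run. In fm_pos against fm_neg the count among the 10 was 10, 3 with the replicate block, 2 with the libraries of both groups only, and 7 to 10 when 1 library was left out. In fm_neg_Gata3flox against fm_neg it was 3, 6 with DESeq2, 9 with no filter, 5 with the libraries of both groups only, 1 with lane, and 1 when any 1 library was left out. For fm_pos against fm_neg and for fm_neg_Gata3flox against fm_neg, no count over all genes is given under the alternatives. The counts among the 10 cannot be set against a share there. Nothing is read from them, since fm_neg chose the genes. The cause of the shifts between fits was not tested.

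Whether replicate numbers pair the samples could not be settled. Same-numbered Gata3flox libraries correlated at 0.241, 0.0380 and 0.0967, and those with different numbers at -0.160 to 0.0646. Same-numbered tamoxifen libraries correlated at 0.0528, and those of fm_pos and fm_neg at -0.00557. With the block, Tgfbi (0.16) and Cilp (-0.070) turned sign in the Gata3flox contrast, and Igf1 (-0.16), Tgfbi (2.001) and Cilp (0.87) in the tamoxifen contrast; none passed. Gas6 turned to 0.11 with lane.

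Leaving out 1 library at a time moved the log2 difference of the Gata3flox contrast from -0.67 to 0.25 for Gas6, from -0.58 to 0.59 for Tgfbi, from -0.71 to 1.84 for Ptn and from -2.19 to 0.58 for Cilp. In the tamoxifen contrast the ranges were -1.51 to 0.91 for Igf1, -3.40 to 0.67 for Gas6, -1.94 to 8.90 for Tgfbi, -2.42 to 3.00 for Mmp3, -1.11 to 2.93 for Cilp and -0.21 to 0.70 for Ccdc80. Where 1 sample remained in a group, it was assumed to vary like the other groups. The other 4 genes of the tamoxifen contrast and 6 of the Gata3flox contrast kept their sign in each such fit. The share of the counts in fibroblast-like cells of sc_skin_ILC was 0 under all 4 settings. No fibroblast-like cluster was found in the reported clustering, so that share could only be 0 there. Cells with at least 2 fibroblast-gene counts took the place of clusters in 1 setting.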
